A study of Mus musculus with 12 samples.

Results

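Mural cells wrap the outside of brain vessels. Pericytes sit within the basement membrane of capillaries, where endothelial cells hold them through the PDGF-B ligand and its receptor Pdgfrb, and smooth muscle cells surround arterioles and carry the contractile apparatus of actin, smooth muscle myosin and their regulators. Both lineages depend on Notch3, and the ATP-sensitive potassium channel formed by Kcnj8 and Abcc9 links the metabolic state of pericytes to their membrane potential. In the hippocampus, capillary pericytes are thought to help set blood flow and the tightness of the blood-brain barrier.

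Mural nuclei were taken from single-nucleus RNA sequencing (snRNA-seq) of the left hippocampus. There were 12 libraries of sorted nuclei, 1 per female mouse, with 3 3xTg-AD and 3 wild-type (WT) littermates at 6 months and the same numbers at 12 months. The 3xTg-AD mice carry the Tg(APPSwe,tauP301L)1Lfa transgenes of mutant human APP and human tau, driven by the neuronal Thy1.2 promoter, and a further mutant allele that is not reported here, on a B6;129 background. The WT littermates carry none of these alleles, and no mouse was treated. A nucleus was retained with 500 to 10000 detected genes. It was called mural if at least 3 of 7 genes (Pdgfrb, Rgs5, Abcc9, Kcnj8, Notch3, Atp13a5 and Acta2) had a UMI (unique molecular identifier, 1 counted transcript), Cldn5, Col1a2 and Mog had none, and the transmitter genes Slc17a7, Slc17a6, Gad1 and Gad2 had at most 1 UMI together. This found 957 of 184957 retained nuclei, or 0.517%, from 185643 deposited barcodes. Between 50 and 110 nuclei came from each library. Values of the 7 genes chose the nuclei and are given below only as a description.

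The libraries held 79177051 to 128323908 UMIs. Mural nuclei were shallow, with a median of 1348 UMIs (medians of libraries from 1040 to 1996), against 4371 to 6751 in the other nuclei. The median was lower in 12 of 12 libraries, at a mean ratio of 0.251 (exact two-sided sign-flip permutation test over libraries, p = 0.000488). The exclusions of the rule select against deep nuclei, so this outcome was in part set by the selection. Nuclei with 1 of the 7 genes that met the exclusions had a median of 3472 UMIs. The mural median did not differ detectably from that of endothelial nuclei of the same libraries (ratio 1.08, lower in 1 of 12 libraries, exact permutation p = 0.134), and it was lower than that of fibroblast nuclei in 12 of 12 libraries (ratio 0.533, exact permutation p = 0.000488). No barcode was shared by mural nuclei of different libraries, although 4187 of 180722 barcodes of retained nuclei occurred in more than 1 library, and 36 mural nuclei (3.76%) were called doublets against 6.79% of all retained nuclei, a rate that differed within the mural nuclei as given below. App was at 574 to 628 CPM (UMIs of the gene scaled to a common total of UMIs) over all nuclei of the 3xTg-AD libraries and at 528 to 648 CPM in the WT libraries, and Mapt was at 352 to 470 CPM and 370 to 431 CPM, so that neither separated the genotypes. The human transgenes cannot be told from mouse App and Mapt in these counts.

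The label names smooth muscle, so the contractile genes were looked at first. Most were rarely detected at this depth. Acta2, the smooth muscle actin, had a UMI in 4 of 957 nuclei, and as a gene of the rule it is given as a description. Outside the rule, 3 nuclei (0.313%, exact 95% binomial interval 0.0647 to 0.913%, counting error only) had at least 2 of the 6 contractile genes Myh11, Tagln, Cnn1, Lmod1, Myocd and Actg2, and 84 had at least 1. Over all retained nuclei, 80 had 2 or more of these genes, and Acta2 and Myh11 occurred together in 9, of which 3 were mural. Cnn1, Actg2 and Mustn1 were at 0 UMIs in the mural nuclei. With a median of 1348 UMIs per nucleus, a gene without UMIs may still be expressed, and Myh11, Cald1 and Mylk are described below. The nuclei are called mural, and no smooth muscle set was separated from the pericytes.

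A part of the nuclei carried an astrocyte profile. Of 8 astrocyte markers (Slc1a2, Gja1, Aqp4, Slc4a4, Gpc5, Slc1a3, Atp1b2 and Fgfr3), 485 nuclei had none and 233 had 1, only 9 had 3 and 12 had 4, while 44 had 6, 61 had 7 and 38 had 8. At least 4 were found in 170 nuclei (17.8%), which are called astrocyte-marker nuclei below, and the other 787 are called the remaining nuclei. This split was made after the values were seen. The astrocyte-marker nuclei were deeper, with a median of 3719 UMIs against 1218, and held 37.5% of all mural UMIs. Library medians of the remaining nuclei ran from 986 to 1441 UMIs, beside 947 to 1752 in endothelial nuclei. The depth ratio to endothelial nuclei given above includes the astrocyte-marker nuclei, and the ratio without them was not tested. Among them 18 (10.6%) were called doublets, against 18 (2.29%) of the remaining nuclei and 6.45% of the other retained nuclei with at least 4 astrocyte markers, and the part of doublets in their profile was not tested. Of the 170, 148 had exactly 3 markers of the rule, and 158 had the set of Pdgfrb, Notch3 and Atp13a5, whereas Abcc9 was found in 14.1%, Rgs5 in 11.8% and Kcnj8 in 2.94%. Among 22417 other retained nuclei with at least 4 astrocyte markers, Pdgfrb was found in 13.7%, Notch3 in 13.9% and Atp13a5 in 21.9%.

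The pericyte genes that the rule leaves out differed in detection between these sets. Their list was chosen with earlier results of these data known, so the shares are a description. At least 3 of the 17 genes of a pericyte list were detected in 762 of the 787 remaining nuclei (96.8%), and in 28 of the 170 astrocyte-marker nuclei (16.5%), although the latter were deeper. Vtn, which codes for the matrix protein vitronectin, was found in 88.2% of the remaining nuclei, 14.1% of the astrocyte-marker nuclei and 1.44% of endothelial nuclei. Slc38a11, a member of a family of amino acid transporters, was found in 81.7%, 14.7% and 0% of the same sets. Slc1a2, the main glutamate transporter of astrocytes, helped to choose the sets and is given as a description. It was found in 9.02% of the remaining nuclei, 10.9% of endothelial nuclei and 9.49% of fibroblast nuclei.

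**Figure D1:**
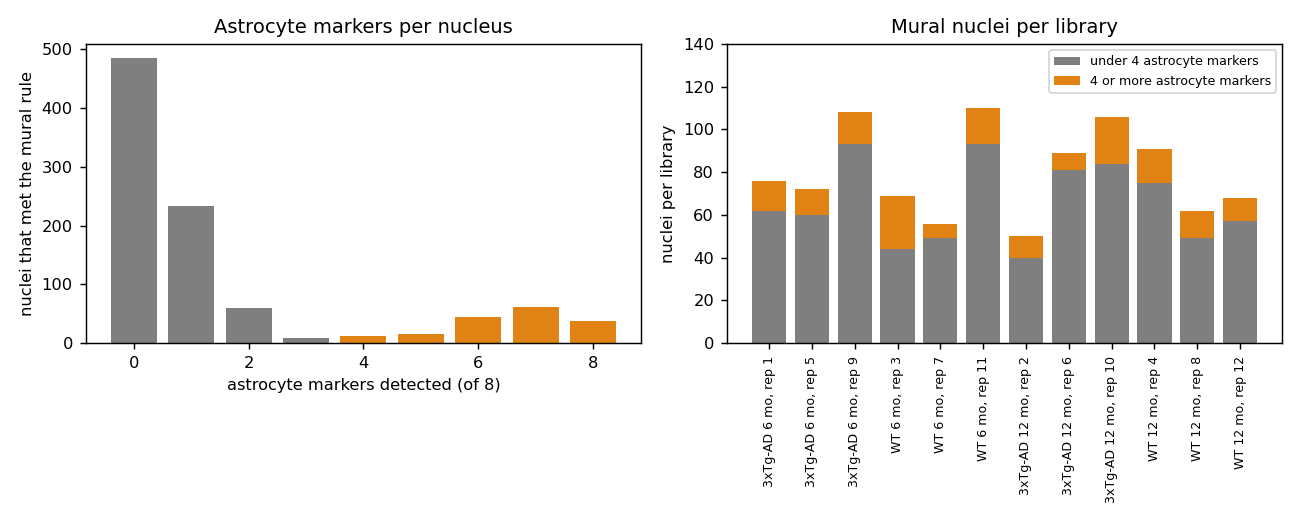
Left, the number of nuclei that met the mural rule (y axis) by how many of 8 astrocyte markers were detected (x axis). Right, stacked bars give the mural nuclei of each of the 12 libraries. Orange marks the 170 nuclei with 4 or more astrocyte markers, which make up 36.2% of the bar of WT 6 months replicate 3, and grey marks the remaining 787.

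The astrocyte-marker set held astrocyte transcripts, and pericyte transcripts in a part of its nuclei. None of the 17 pericyte genes was found in 92 of the 170 nuclei, and the median number was 0, against 6 in the remaining nuclei. The 8 astrocyte markers, whose detection chose the sets, summed to 20412 CPM in it and to 18409 CPM in the 22417 other nuclei with 4 or more astrocyte markers, against 511 CPM in the remaining mural nuclei. Agt, the angiotensinogen precursor, was at 196 CPM in the astrocyte-marker set and at 185 CPM in the other astrocyte-marker nuclei of the libraries. Slc6a11, a GABA transporter of astrocytes, was at 1118 and 1016 CPM. Apoe, the main lipid carrier of the brain, was at 2028 and 2140 CPM, and at 125 CPM in the remaining mural nuclei. The pericyte genes were found more often in this set than in the other astrocyte-marker nuclei, with Vtn in 14.1% against 0.727%, Slc38a11 in 14.7% against 0.0937%, and at least 3 of the 17 pericyte genes in 16.5% against 0.919%. The set was also chosen by rule genes of mural cells and was deeper, so these shares are a description. Results below are given for all mural nuclei, and a value given only in this way may move without the astrocyte-marker nuclei. A part of the results is also given without the astrocyte-marker nuclei. Their number ran from 7 to 25 per library. WT 6 months replicate 3 held 25 of them among 69 mural nuclei, the largest share at 36.2%, and the other libraries held 8.99 to 21.0%.

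In the remaining nuclei, the rule genes had the following levels. Atp13a5, a P-type ATPase, was at 5647 CPM (4692 to 7500 CPM over the 12 libraries) and was found in 97.7% of nuclei. Abcc9, the regulatory subunit of the ATP-sensitive potassium channel, was at 1699 CPM (1157 to 2212), and Kcnj8, its pore subunit, was at 294 CPM (155 to 441). Kcnj8 and Abcc9 are neighbours on the minus strand of chromosome 6 in GRCm38 (chr6:142564837-142571614 and chr6:142587862-142702315). Pdgfrb was at 1213 CPM (938 to 2189), Notch3 at 965 CPM (787 to 1354) and Rgs5, a regulator of G protein signalling, at 970 CPM (706 to 1779). With the astrocyte-marker nuclei included, these levels were 3746 CPM for Atp13a5, 1101 CPM for Abcc9, 186 CPM for Kcnj8, 867 CPM for Pdgfrb, 710 CPM for Notch3 and 631 CPM for Rgs5.

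Nuclei just inside and just outside the threshold of the rule differed in composition. Vtn was found in 4.14% of the 2005 nuclei with 2 markers that met the other conditions, in 44.1% of the 315 nuclei with 3 markers and in 85.5% of the 268 nuclei with 4. The median depth was 3223 UMIs with 2 markers, 2083 with 3 and 1154 with 4. Of the 1162 nuclei with 3 or more markers, 205 were left out by the other conditions, 91 of them by transmitter genes, 73 by Col1a2, 45 by Mog and 4 by Cldn5, with some counted more than once.

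**Figure D2:**
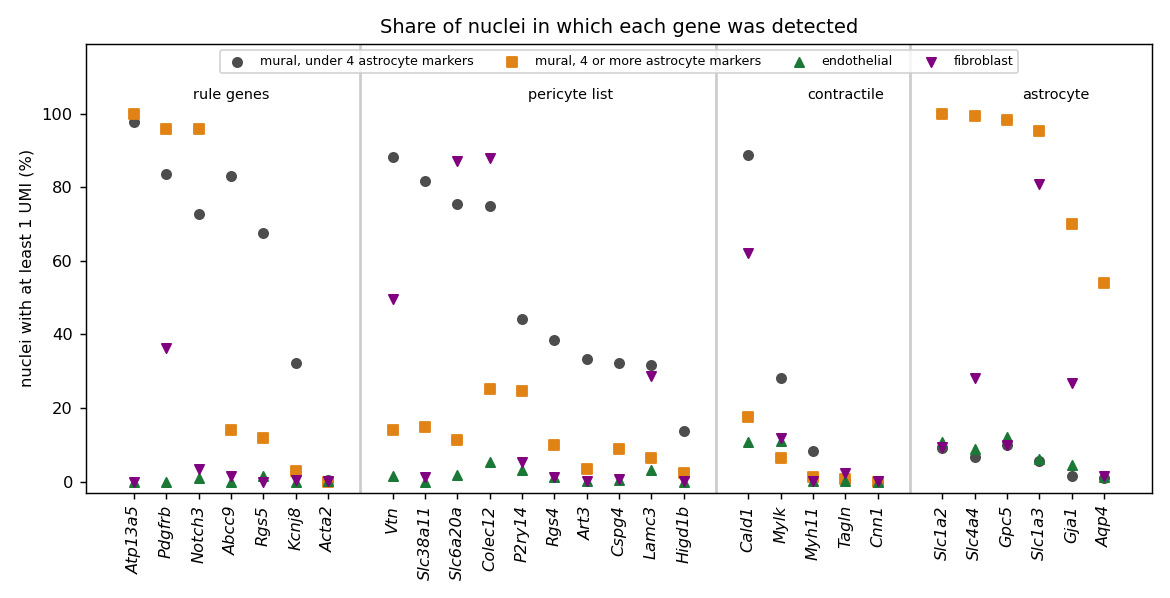
The share of nuclei with at least 1 UMI of each gene (y axis, percent) in the 787 remaining mural nuclei, the 170 astrocyte-marker mural nuclei, 762 endothelial and 1433 fibroblast nuclei. Grey lines part the rule genes, pericyte genes outside the rule, contractile genes and astrocyte markers, and Vtn lies at 88.2% in the remaining nuclei against 14.1% in the astrocyte-marker nuclei.

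To show what sets mural nuclei apart, they were compared with the endothelial and fibroblast nuclei of the same libraries. These had been picked by their own marker genes, 762 as endothelial and 1433 as fibroblast. In each comparison the genes of the rules of both classes were left out after the fit and before the adjustment of p-values. Because both sides of each comparison were chosen by their transcripts, the calls describe the classes and are no independent evidence for their names. The gene lists were chosen with earlier results of these data known, so their counts beside all genes are also a description. A filter on low counts kept genes that were high in either class, so genes near 0 in a class were tested through the other class. Counts were summed per library and class and tested with edgeR's quasi-likelihood method, with the library as a block, and a call needed both a Benjamini-Hochberg adjusted p below 0.05 and a log2 fold change beyond 0.2 in size. Against endothelial nuclei, 1093 of 5291 genes tested were higher in mural nuclei (20.7%) and 1293 were lower (24.4%), 45.1% in all. Against fibroblast nuclei, 1686 of 7200 were higher (23.4%) and 1678 were lower (23.3%), 46.7% in all. Without the astrocyte-marker nuclei, 834 of 4434 genes were higher (18.8%) and 1028 lower (23.2%) against endothelial nuclei, 42% in all, and 1279 of 5466 were higher (23.4%) and 1331 lower (24.4%) against fibroblast nuclei, 47.7% in all.

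The pericyte list lay on the mural side, which is a description because it was chosen with earlier results of these data known. Of its 17 genes, 16 were tested against endothelial nuclei and 16 were higher, beside 20.7% of all genes. The median log2 fold change was 5.12 (5.73 without the astrocyte-marker nuclei), beside a median of -0.03 over all genes. In endothelial nuclei 8 of the 16 had at most 3 UMIs, so that they passed the filter on low counts through the mural side, and with these set at a floor of 3 UMIs the median was 4.89 (5.54 without the astrocyte-marker nuclei). Vtn was at 1422 CPM in all mural nuclei and at 2202 CPM in the remaining nuclei, against 14.2 CPM in endothelial and 434 CPM in fibroblast nuclei. Its log2 fold change was 6.65 ± 0.32 (SE) against endothelial nuclei (edgeR adjusted p = 5.2e-14) and 1.66 ± 0.11 against fibroblast nuclei (edgeR adjusted p = 1.9e-11). Slc38a11 was at 927 CPM in all mural nuclei and at 0 UMIs in endothelial nuclei, so that it was at least 413-fold higher against a floor of 3 UMIs over all endothelial nuclei. Against fibroblast nuclei, at 5.12 CPM, its log2 fold change was 7.41 ± 0.23.

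Other pericyte genes had narrower patterns. Higd1b, a mitochondrial membrane protein, was found in 13.7% of the remaining nuclei and in 0% of endothelial nuclei of similar depth. Cspg4, the NG2 proteoglycan, was at 168 CPM against 3.74 CPM in endothelial and 3.02 CPM in fibroblast nuclei. Against fibroblast nuclei, 13 of the 17 genes were higher and 2 were lower, beside 23.4% and 23.3% of all genes. The lower pair were Slc6a20a, a transporter of imino acids, with 882 CPM against 2431 CPM (log2 fold change -1.35 ± 0.11), and Colec12, a scavenger receptor, with 887 CPM against 1592 CPM (-0.86 ± 0.11). Both kept this direction without the astrocyte-marker nuclei, at -0.74 ± 0.13 for Slc6a20a and -0.28 ± 0.11 for Colec12.

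The rule for named genes also gave the called genes with the largest differences that lay on the same side in every library. Among the 12 against endothelial nuclei were Tbx2, a T-box transcription factor, with 117 CPM in mural nuclei and 0 UMIs in endothelial nuclei (at least 52.3-fold), Enpep, the aminopeptidase A that cleaves angiotensin II, with 122 CPM and 0 UMIs (at least 54.4-fold), and Ano1, a calcium-activated chloride channel, with 804 UMIs and 3 UMIs. Among those against fibroblast nuclei were Art3, an ADP-ribosyltransferase family member, with 389 UMIs against 1, and Mcam, the adhesion molecule CD146, with 141 UMIs against 3. On the other side, Ptprb, the endothelial receptor phosphatase VE-PTP, was at 1.92 CPM in mural nuclei and 1624 CPM in endothelial nuclei, and Ptgds, prostaglandin D2 synthase, was at 73.2 CPM against 8440 CPM in fibroblast nuclei. As a description, the 20 genes with the largest ratio of mural over all other nuclei held 4 long noncoding RNAs, Gm36823, Carmn, Morrbid and Gm13470, and the antisense transcripts Tbx3os1 and Adap2os. Carmn, the host transcript of the miR-143 and miR-145 cluster of smooth muscle and pericytes, was at 292 CPM against 0.507 CPM in the other nuclei, and Morrbid was at 634 CPM against 1.60 CPM.

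Of the 16 genes of the contractile list, 4 were tested against endothelial nuclei and 3 were higher, beside 20.7% of all genes. In endothelial nuclei 1 of the 4 had at most 3 UMIs and passed the filter on low counts through the mural side. Against fibroblast nuclei 6 were tested, 4 were higher and 2 lower, beside 23.4% and 23.3% of all genes. The lower pair were Lmod1 (log2 fold change -2.71 ± 0.43) and Synpo2 (-0.76 ± 0.18). Without the astrocyte-marker nuclei, 4 of 5 were higher and 1, Synpo2, was lower, beside 23.4% and 24.4% of all genes. Cald1, the actin-binding caldesmon, was at 1200 CPM in all mural nuclei and 1836 CPM in the remaining nuclei, against 116 CPM in endothelial nuclei (log2 fold change 3.57 ± 0.24), and was found in 88.7% of the remaining nuclei. Myh11, smooth muscle myosin heavy chain, had 95 UMIs in mural nuclei, 1 in endothelial and 4 in fibroblast nuclei, and was found in 8.39% of the remaining nuclei, 0.131% of endothelial nuclei and 1.18% of the astrocyte-marker nuclei. Mylk, myosin light chain kinase, was at 145 CPM against 89.0 CPM (0.77 ± 0.20). Tagln was at 1.92 CPM in mural nuclei and at 12.6 CPM in fibroblast nuclei, and could not be tested.

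Among 14 transcription factors of mural cells, 10 were tested against endothelial nuclei, 7 were higher and 1 was lower, beside 20.7% and 24.4% of all genes. In endothelial nuclei 2 of the 10 had at most 3 UMIs and passed the filter on low counts through the mural side. Heyl, a Notch target, had 113 UMIs in mural nuclei and 1 in endothelial nuclei, and was at 54.1 CPM against 11.4 CPM in fibroblast nuclei (log2 fold change 2.26 ± 0.28). Tbx18, a marker of the pericyte lineage, was higher than in endothelial nuclei (2.80 ± 0.51) and lower than in fibroblast nuclei (-2.07 ± 0.18), and so was Foxd1 (2.47 ± 0.42 and -1.82 ± 0.12). Epas1, the hypoxia-inducible factor HIF-2α, was lower than in endothelial nuclei (-1.69) and higher than in fibroblast nuclei (2.67). Ebf1 was at 2766 CPM in all mural nuclei and 4247 CPM in the remaining nuclei, against 2497 CPM in endothelial nuclei. Its log2 fold change of 0.22 did not pass, and without the astrocyte-marker nuclei it was 0.91 and passed. Of 9 factors tested there, 8 were higher and 1 was lower, beside 18.8% and 23.2% of all genes.

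Of 16 Notch genes, 10 were tested against endothelial nuclei, 4 were higher and 2 were lower, beside 20.7% and 24.4% of all genes, so that the lower share is no more than that of all genes. In endothelial nuclei 1 of the 10 had at most 3 UMIs and passed the filter on low counts through the mural side. Without the astrocyte-marker nuclei, 5 of 9 were higher and 2 lower, beside 18.8% and 23.2%, and the lower share is again no more than that of all genes. Hey2, a transcriptional repressor induced by Notch, was at 68.5 CPM against 8.98 CPM (log2 fold change 2.83 ± 0.35), and Notch1 was at 153 CPM against 111 CPM (0.44). The lower pair were the ligand Jag2, at 11 CPM against 107 CPM, and the receptor Notch4, at 14.4 CPM against 89.0 CPM. The ligand Jag1 was at 80.4 CPM and 102 CPM and was not called. Of 12 genes for PDGF signalling and pericyte contact, 9 were tested, 4 were higher and 4 were lower, beside 20.7% and 24.4% of all genes. In endothelial nuclei 1 of the 9, S1pr3, had at most 3 UMIs and passed the filter on low counts through the mural side. Pdgfb, the ligand of Pdgfrb, was at 0.958 CPM in mural and 135 CPM in endothelial nuclei (-6.21 ± 0.34), and Tek, the angiopoietin receptor, was at 3.35 CPM and 568 CPM (-7.04 ± 0.29). Pdgfb was detected in 2 mural nuclei and Tek in 7. Both passed the filter on low counts through the endothelial side, so the size of these folds is uncertain. S1pr3, a sphingosine-1-phosphate receptor, had 159 UMIs in mural nuclei and 1 in endothelial nuclei, while S1pr1 was lower than in endothelial nuclei, at 53.6 CPM and 210 CPM. S1pr1 was at 3.83 CPM in the remaining nuclei and at 137 CPM in the astrocyte-marker nuclei. The same held for Pdgfd, a further ligand of Pdgfrb, at 7.66 CPM and 317 CPM.

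Of 20 genes of TGF-β and BMP signalling, 18 were tested against endothelial nuclei. Of these, 14 were lower and 2 were higher, beside 24.4% and 20.7% of all genes. The higher pair were the BMP receptor Bmpr1a, at 248 CPM against 41.1 CPM (log2 fold change 2.63), and Ltbp1, which stores TGF-β in the matrix, at 152 CPM against 26.2 CPM (2.61). Among the lower genes were Id1, a BMP target, at 7.66 CPM against 250 CPM (-5.07 ± 0.30), and the receptor Acvrl1, at 5.27 CPM against 181 CPM (-4.97 ± 0.32). Id1 was detected in 15 mural nuclei and Acvrl1 in 10. Both passed the filter on low counts through the endothelial side, and the number of such genes was not counted. Without the astrocyte-marker nuclei, 11 of 17 were lower and Bmpr1a and Ltbp1 were higher, beside 23.2% and 18.8% of all genes.

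Genes for vascular tone were mostly on the mural side. Of 25 vasoactive genes, 14 were tested against endothelial nuclei, with a median log2 fold change of 3.19. There 12 were higher and 1 was lower, beside 20.7% and 24.4% of all genes. Against fibroblast nuclei 14 of 15 were higher and 1 was lower, beside 23.4% and 23.3% of all genes. Without the astrocyte-marker nuclei, 12 of 13 were higher and 1 lower against endothelial nuclei, beside 18.8% and 23.2% of all genes. Against fibroblast nuclei, 12 of 14 were then higher and 1 lower, beside 23.4% and 24.4% of all genes. Ednra, the endothelin A receptor, was at 235 CPM in all mural nuclei and 361 CPM in the remaining nuclei (255 to 521 CPM over libraries), against 11.6 CPM in fibroblast nuclei (4.29 ± 0.24). Endothelial nuclei held 2.99 CPM. The nitric oxide receptor subunits Gucy1a1 and Gucy1b1 were at 198 and 435 CPM against 7.48 and 26.2 CPM in endothelial nuclei, and the cyclic GMP phosphodiesterase Pde5a was at 228 CPM against 68.1 CPM. The gene lower in both comparisons was Calcrl, the receptor of CGRP and adrenomedullin, at 64.6 CPM against 193 CPM in endothelial and 210 CPM in fibroblast nuclei. Ednrb, the endothelin B receptor, was higher against endothelial nuclei, at 102 CPM against 16.5 CPM, but it was at 32.9 CPM in the remaining nuclei and at 217 CPM in the astrocyte-marker nuclei, and was not tested without the latter.

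Of 26 channels and transporters, 19 were tested against endothelial nuclei, 13 were higher and 2 were lower, beside 20.7% and 24.4% of all genes. In endothelial nuclei 1 of the 19, Ano1, had at most 3 UMIs and passed the filter on low counts through the mural side. Without the astrocyte-marker nuclei, 12 of 20 were higher and 2 lower, beside 18.8% and 23.2% of all genes. Ano1 stood at 385 CPM in all mural nuclei and 599 CPM in the remaining nuclei, and the 12 libraries of the latter ranged from 411 to 826 CPM. Cacna1c, the pore of the L-type calcium channel, was at 1251 CPM against 183 CPM (log2 fold change 2.86). Slc30a10, a manganese exporter, was at 248 CPM against 6.73 CPM (5.07). The lower pair were Abcc4, at 14.4 CPM against 1044 CPM, and the cationic amino acid transporter Slc7a1, at 20.1 CPM against 532 CPM.

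Of 27 basement membrane genes and their receptors, 19 were tested against endothelial nuclei, 11 were higher and 6 were lower, beside 20.7% and 24.4% of all genes. In endothelial nuclei 1 of the 19, Col4a4, had at most 3 UMIs and passed the filter on low counts through the mural side. Of the type IV collagen chains, Col4a3 was at 135 CPM against 8.23 CPM (log2 fold change 3.98 ± 0.34) and Col4a4 had 173 UMIs against 2. Col4a1 and Col4a2 were lower, at 103 CPM against 185 CPM (-0.89) and at 86.2 CPM against 159 CPM (-0.95). Without the astrocyte-marker nuclei, Col4a1 was no longer called (-0.36). There 10 of 20 tested genes of the list were higher and 4 lower, beside 18.8% and 23.2% of all genes. The lower share is thus no more than that of all genes. Nid1, which links laminin to collagen, was at 194 CPM against 16.4 CPM in endothelial nuclei (3.58 ± 0.25) and 208 CPM in fibroblast nuclei, and Lama2, the laminin α2 chain, was at 1397 CPM against 82.3 CPM (4.47 ± 0.34) and 1407 CPM. Fn1, fibronectin, was at 1.92 CPM against 451 CPM in endothelial nuclei. It was detected in 4 mural nuclei and passed the filter on low counts through the endothelial side.

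**Figure D3:**
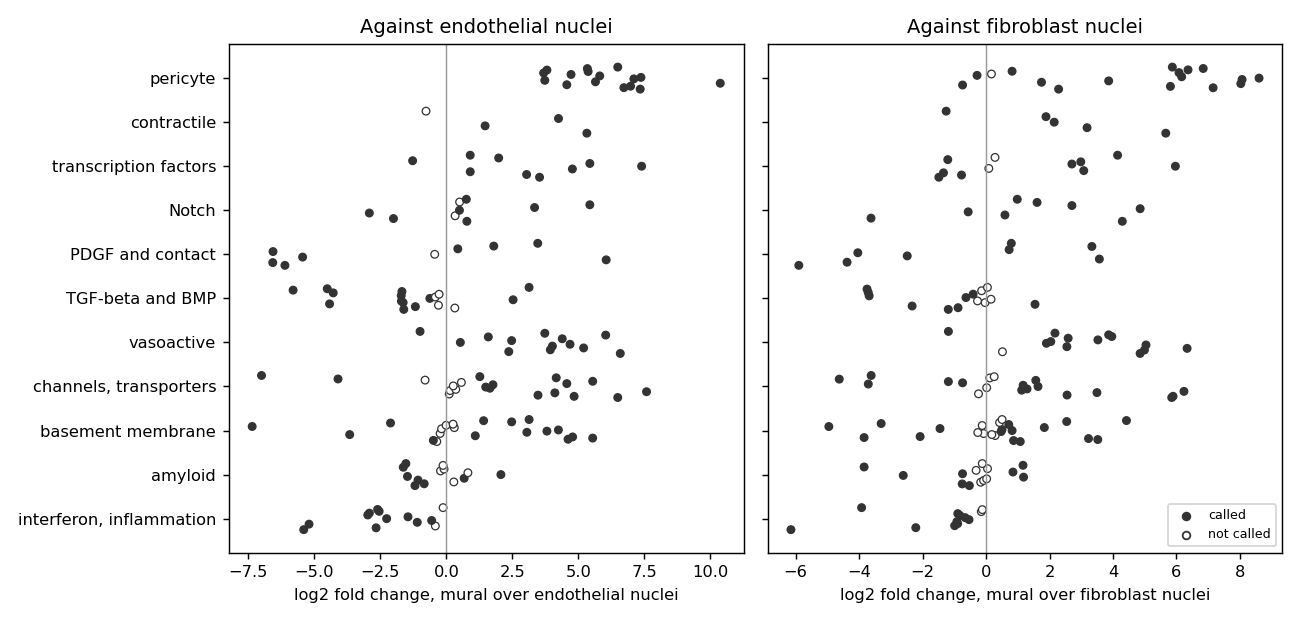
Each point is 1 tested gene of a list (rows), placed by its log2 fold change (x axis) of the 787 remaining mural nuclei over endothelial (left) or fibroblast nuclei (right). Filled points were called and open points were not, and all 16 tested genes of the pericyte list lie above 0 on the left. Of these, 8 had at most 3 UMIs in endothelial nuclei and passed the filter on low counts through the mural side.

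Genes tied to amyloid and to inflammation were also described. Of 24 genes for amyloid processing and clearance, 16 were tested against endothelial nuclei, 6 were higher and 5 were lower, beside 20.7% and 24.4% of all genes. App was at 396 CPM in all mural nuclei and 525 CPM in the remaining nuclei, against 1215 CPM in endothelial nuclei (log2 fold change -1.60 ± 0.13). The other nuclei of the libraries held 528 to 648 CPM of App. In mural nuclei 8 neuronal markers summed to 27.7% of their level in the other nuclei (31.4% in the remaining nuclei), and the part of such RNA in the mural App level was not tested. Lrp1, a receptor that clears amyloid-β, was at 191 CPM against 41.9 CPM (2.20). Apoe was at 838 CPM against 358 CPM (1.18 ± 0.17, edgeR adjusted p = 2.7e-06), but this direction turned without the astrocyte-marker nuclei, to -1.47 ± 0.16 (edgeR adjusted p = 5.7e-08). Abca1, the cholesterol exporter that loads Apoe, turned likewise from 0.81 to -1.63. Without these nuclei, 2 of 13 tested genes were higher (Lrp1 and Ece1) and 6 were lower, beside 18.8% and 23.2% of all genes. Of 28 interferon and inflammation genes, 15 were tested, none was higher and 13 were lower than in endothelial nuclei, beside 24.4% lower of all genes. Without the astrocyte-marker nuclei 11 of 13 were lower, beside 23.2% of all genes. Il1r1, the receptor of interleukin 1, was at 21.5 CPM against 1303 CPM (-5.75 ± 0.24), and H2-K1, a class I antigen, at 28.7 CPM against 204 CPM. Of 22 stress and immediate early genes, 14 were tested, none was higher and 11 were lower, beside 24.4% lower of all genes. Without the astrocyte-marker nuclei 6 of 10 were lower, beside 23.2% of all genes. In both lists, genes carried by endothelial nuclei could pass the filter on low counts through that side, which in part fixes a lower call. Il1r1 was detected in 44 mural nuclei and H2-K1 in 56, and the number of genes that passed this way was not counted. Icam1, Ccl2, Cxcl10, Il6 and Lcn2 had at most 1 UMI in the mural nuclei.

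The genotypes and ages were then compared. The share of mural nuclei among retained nuclei was 0.532 ± 0.0749% (mean ± SD, n = 3 libraries) in 3xTg-AD mice at 6 months, with libraries from 0.455 to 0.604%, and 0.539 ± 0.175% in WT mice, with libraries from 0.350 to 0.697%. At 12 months it was 0.478 ± 0.127% in 3xTg-AD mice (0.332 to 0.567%) and 0.524 ± 0.0674% in WT mice (0.469 to 0.599%). The groups overlapped at both ages. Over both ages the difference of 3xTg-AD minus WT was -0.0265 percentage points (exact permutation p = 0.71, n = 6 and 6), and that of 12 minus 6 months was -0.0344 points (exact permutation p = 0.605). At a single age, 3 against 3 libraries cannot give a p below 0.1. Without the astrocyte-marker nuclei, the shares were 0.446 ± 0.0710% and 0.420 ± 0.150% at 6 months and 0.402 ± 0.126% and 0.429 ± 0.0669% at 12 months, in the same order of groups. In such counts, fewer cells of a type and less RNA per nucleus cannot be told apart.

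**Figure D4:**
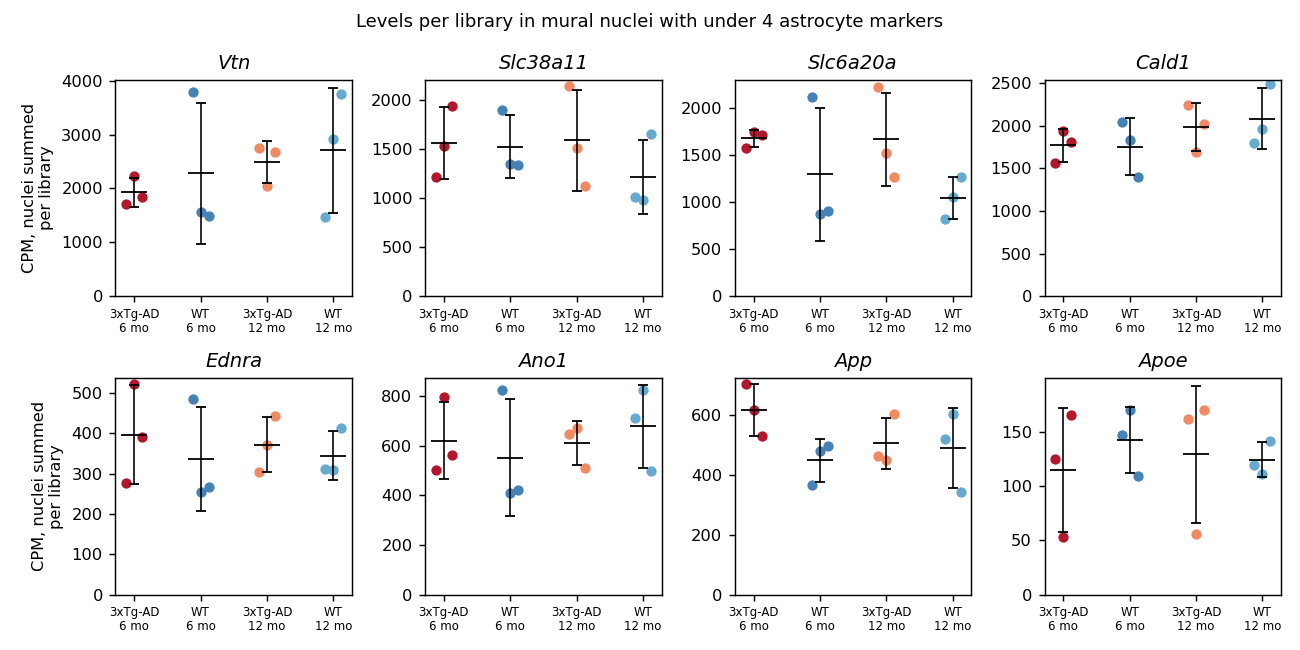
Levels in CPM (y axis) of 8 genes in the remaining mural nuclei, summed per library, for 3xTg-AD and WT mice at 6 and 12 months. Each point is 1 library and bars give the mean and SD of 3 libraries, and the Vtn point at 3794 CPM is WT 6 months replicate 3.

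No gene was called between genotypes or ages. At 6 months, 0 of 3847 genes tested passed (0%), and 121 had an unadjusted p under 0.05 (3.15%). At 12 months, 0 of 3387 passed, with 130 under 0.05 (3.84%). Over both ages, 0 of 4577 passed for genotype (223 under 0.05), 0 for age (129) and 0 for the interaction of genotype and age (146). DESeq2 also called 0 genes in each of the 5 comparisons, with 33, 56, 123, 47 and 62 genes at an unadjusted p under 0.05 in the same order, and edgeR called 0 in each without the astrocyte-marker nuclei. Depth limits these comparisons, because each library gave 102072 to 243562 mural UMIs, so the counts of 0 do not show that the groups are alike. Without the filter on low counts, edgeR called 14 of 17398 genes at 6 months and 24 of 17435 at 12 months. Of 18985 genes, it called 9 for genotype over both ages, 5 for age and 10 for the interaction. At 6 months, 1 gene (AC149090.1) was called without WT replicate 3, the library with the largest share of astrocyte-marker nuclei.

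The genes of smallest p are given as values that did not pass with the filter. Without the filter on low counts, several of them were among the genes called, with edgeR adjusted p-values of 2.9e-05 for Thsd7a, 0.00041 for Prex1 and 0.0025 for Ifi203 over both ages. At 12 months Nxph1 (0.0014), Prex1 (0.014), Cttnbp2 (0.020) and Hs3st4 (0.028) were called there by edgeR, and at 6 months AC149090.1 (0.00087) and Thsd7a (0.036). In 3xTg-AD mice at 6 months, Ifi203, an interferon-activable gene of the PYHIN family, was at 69.2, 89.6 and 114 CPM, and in WT mice at 10.2, 52.0 and 22.1 CPM. These ranges did not overlap (log2 fold change 1.82 ± 0.50, edgeR adjusted p = 0.99). The gene was picked by its p, and 3 against 3 libraries cannot give an exact permutation p below 0.1. At 12 months, Ifi203 was at 98.0, 114 and 61.6 CPM in 3xTg-AD mice and at 4.74, 29.0 and 65.9 CPM in WT mice, which overlap. The other genes at 6 months were Trp53bp1 (1.34 ± 0.33), Thsd7a (-1.47 ± 0.39), Aspn (-0.90 ± 0.25) and AC149090.1 (-1.73 ± 0.40). At 12 months they were Hs3st4 (1.58 ± 0.31), Nxph1 (1.78 ± 0.37), Prex1 (-1.81 ± 0.40), Cttnbp2 (-1.46 ± 0.35) and Sema5a (-1.08 ± 0.26). Prex1 was at 236 CPM in the astrocyte-marker nuclei, whereas the remaining nuclei held at most 24.3 CPM in any library and the gene was not tested there. Nxph1 was at 225, 286 and 320 CPM in 3xTg-AD and 114, 87.1 and 29.3 CPM in WT mice at 12 months, against 572 to 661 CPM in the other nuclei of the same libraries. In the same mural nuclei, 8 neuronal markers summed to 4879 to 5407 CPM in 3xTg-AD and 2366 to 7810 CPM in WT libraries, and their part in this difference was not tested. For age, the genes were Syne2 (-0.85 ± 0.20), Calr (-1.04 ± 0.31), Zfp462 (-0.54 ± 0.16), Vapa (-0.85 ± 0.26) and Ddah1 (-0.997 ± 0.31). Zfp462 turned to 0.08 without the astrocyte-marker nuclei. For both ages together they were Thsd7a (-1.45 ± 0.31), Prex1 (-1.56 ± 0.34), Gabra2 (-0.85 ± 0.19), Ifi203 (1.67 ± 0.42) and Ptpn11 (0.89 ± 0.24). For the interaction they were Nxph1, Ppme1, Mpc1, Zfp40 and AC149090.1, of which the smallest edgeR adjusted p was 0.71. Without the filter on low counts, Nxph1 (edgeR adjusted p = 0.0038) and AC149090.1 (edgeR adjusted p = 0.0094) were called for the interaction.

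The leading pericyte genes were next compared mouse by mouse. In the remaining nuclei, Vtn was at 1716, 2233 and 1845 CPM in 3xTg-AD and at 3794, 1558 and 1484 CPM in WT mice at 6 months. At 12 months it was at 2749, 2040 and 2683 CPM in 3xTg-AD and at 1468, 2910 and 3762 CPM in WT mice. WT values lay on both sides of the 3xTg-AD values at each age, and the log2 fold change of genotype over both ages was -0.19 ± 0.25 (-0.05 ± 0.19 with the astrocyte-marker nuclei). Slc38a11 had a log2 fold change of 0.19 ± 0.20 and Cald1 of -0.04 ± 0.15 in the same nuclei. Of the 16 pericyte genes tested over both ages in all mural nuclei, 2 had an unadjusted p under 0.05, beside 4.87% of all genes, and the median log2 fold change of the list was -0.02.

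Slc6a20a had the smallest of these p-values and was singled out after the values were seen. In all mural nuclei at 6 months it was at 1020, 1130 and 1157 CPM in 3xTg-AD and at 840, 546 and 729 CPM in WT mice, and at 12 months at 1097, 1241 and 780 CPM and at 602, 675 and 784 CPM. The groups did not overlap at 6 months, where 3 against 3 libraries cannot give an exact permutation p below 0.1. They overlapped by 1 library of each genotype at 12 months (log2 fold change over both ages 0.58 ± 0.17, edgeR adjusted p = 0.95). In the remaining nuclei, WT 6 months replicate 3 lay above the 3xTg-AD libraries of that age with 2118 CPM. There the log2 fold change of Slc6a20a was 0.35 ± 0.32 at 6 months and 0.51 ± 0.22 over both ages. Its level in fibroblast nuclei, 2431 CPM, was above that in mural nuclei, and in the other nuclei of the libraries it ranged from 7.15 to 45.6 CPM. Cspg4 had log2 fold changes of opposite sign at the ages. It was 0.33 at 6 months, with 190, 193 and 194 CPM in 3xTg-AD and 133, 182 and 133 CPM in WT mice, and -0.84 at 12 months, with 88.2, 126 and 148 CPM in 3xTg-AD and 128, 240 and 315 CPM in WT mice, and passed at neither age.

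**Figure D5:**
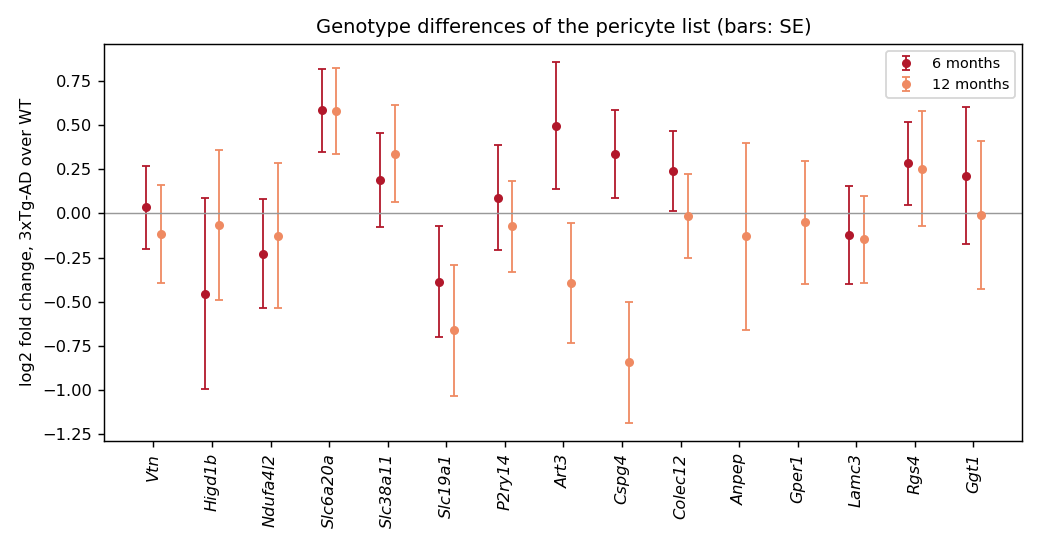
The log2 fold change of 3xTg-AD over WT (y axis) for tested genes of the pericyte list that are reported here (x axis) in all mural nuclei at 6 and at 12 months, with bars of 1 SE. No plotted gene passed the test, and Slc6a20a lies at 0.58 at both ages.

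Of the lists, the numbers of genes with an unadjusted p under 0.05 for genotype over both ages were 1 of 10 transcription factors, 1 of 8 Notch genes, 0 of 13 vasoactive genes, 2 of 17 channels and transporters, 0 of 18 basement membrane genes, 1 of 16 amyloid genes, 0 of 4 inflammation genes, 1 of 7 PDGF genes, 0 of 11 TGF-β and BMP genes, 0 of 4 contractile genes and 1 of 5 stress genes, beside 4.87% of all genes. The transcription factor and the Notch gene are both Heyl, which is in both lists. Slc6a20a is likewise counted both in the pericyte list and among the channels and transporters. App was at 519, 427 and 414 CPM in 3xTg-AD and 256, 442 and 389 CPM in WT mice at 6 months, and over both ages its log2 fold change was 0.20 ± 0.18 in all mural nuclei and 0.23 ± 0.19 in the remaining nuclei. The genotypes overlapped at 6 months in all mural nuclei. In the remaining nuclei of that age App was at 706, 617 and 531 CPM in 3xTg-AD and at 368, 482 and 499 CPM in WT mice. These do not overlap, but 3 against 3 libraries cannot give an exact permutation p below 0.1. The log2 fold change of 0.40 ± 0.25 did not pass. Apoe ranged from 347 to 1240 CPM over the libraries in all mural nuclei and from 53.2 to 170 CPM in the remaining nuclei.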

How the data were processed

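Nuclei of the left hippocampus were sorted and sequenced with 10x 3′ chemistry. The authors made the deposited UMI counts per gene and barcode with Cell Ranger 6.1.1 on mm10. Ambient RNA removal and the further filters described in the study came after these counts. Here, nuclei were selected by the rule in the report, and their raw counts were summed per library. The replicate was the mouse (12 libraries of 79177051 to 128323908 UMIs), and p-values measure the spread between mice.

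Genes passing edgeR's expression filter were tested with its quasi-likelihood test (edgeR 4.0.16, R 4.3.3) after TMM scaling, with Benjamini-Hochberg adjustment. Libraries with fewer than 10 mural nuclei would have been left out, and there were none. Shares were compared by exact two-sided permutation, of genotypes within each age and of ages within each genotype, and 7 such tests were adjusted together. Doublets were called with Scrublet in scanpy 1.11.5 and kept. CPM levels are from summed UMIs, and folds against a class at 0 use a floor of 3 UMIs over that class. Intervals cover counting error only.

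Named genes were the rule genes, members of the gene lists, the 5 of smallest p where none was called, and the 20 of largest ratio over other nuclei. Also named were the 12 called genes per direction with the largest difference from endothelial and from fibroblast nuclei. These were at 50 CPM or more and on the same side in every library. The members and lists were chosen with earlier results of these data known. Alternatives were RLE scaling, no filter, DESeq2 1.42.0, a stricter marker rule, doublet removal, other denominators, thinning and leaving out each library. Leaving out the astrocyte-marker nuclei, leaving out nuclei over 4000 UMIs and thinning to 1000 UMIs were chosen after seeing the data. The code was tested on simulated data. Some genes of the lists are counted but not reported here by name.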

Additional observations from a re-analysis of the deposited data

How the results depend on the processing

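The genotype difference of the mural share at 6 months was near 0 and changed sign under several settings, each with the groups overlapping. It was 0.0305 points with at least 4 markers, 0.00369 with doublets removed, 0.0262 when thinned to 2000 UMIs, 0.0286 when thinned to 1000 UMIs, 0.0240 among nuclei without transmitter UMIs, 0.02615 without the astrocyte-marker nuclei and 6.99 per 100 endothelial nuclei. On that last scale it kept its sign at 12 months, at -25.4 (exact permutation p = 0.2), and over both ages, at -9.22. Leaving out single libraries gave -0.101 to 0.0721 at 6 months, -0.0906 to 0.0268 at 12 months and -0.0736 to 0.0130 over both ages. Over both ages it was 0.0125 with at least 4 markers and 0.00976 when thinned to 2000 UMIs. The age difference was 6.82 per 100 endothelial nuclei and -0.0815 to 0.00514 without single libraries. Among single libraries, leaving out 3xTg-AD replicate 2 or WT replicate 11 changed the sign over both ages and with age. The genotype difference in the share of contractile nuclei was -0.726 points (exact permutation p = 0.2, all 3 such nuclei in WT mice) and -3.87 with at least 1 contractile gene (exact permutation p = 0.1). It was -2.08 when thinned to 2000 UMIs, -0.347 with at least 4 markers and -0.245 without Acta2 in the rule, each with an exact permutation p above 0.2. Without single libraries it ran from -0.94 (without WT replicate 8, exact permutation p = 0.05) to -0.428 (without WT replicate 7). The age difference was -1.75 with at least 1 contractile gene and -0.0229 to 0.428 without single libraries. The cause of these changes was not tested.

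With no filter on low counts, 14 of 17398 genes were called at 6 months and 24 of 17435 at 12 months. Of 18985 genes, 9 were called for genotype over both ages, 5 for age and 10 for the interaction. Without single libraries, 0 to 1 genes were called at 6 months, the 1 being AC149090.1 without WT replicate 3. Without the library block, 1433 of 2893 genes tested were called against endothelial and 2166 of 4383 against fibroblast nuclei, so that fewer genes were tested as well as called. Without the astrocyte-marker nuclei, Zfp462 turned to 0.08 (0.078) with age, and Abca1 (-1.63), Apoe (-1.47) and Slc6a11 (-1.09) turned against endothelial nuclei. Against fibroblast nuclei, Vegfa turned to -1.04, Itpr1 to 0.0198, Lama4 to 0.183, Ltbp1 to 0.0434 and Zic1 to 0.0868, and without nuclei over 4000 UMIs, Itpr1 to 0.0337, Lama4 to 0.214, Ltbp1 to 0.111 and Zic1 to 0.148. Of the other values of named genes, 5305 kept direction and side, 52 lost the call and 12 gained it.

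The comparison of contractile with other mural nuclei was not run, because no library held 5 contractile nuclei. No paired analysis was possible because the groups share no replicate numbers. Shallow nuclei and 50 to 110 nuclei per library limit the comparisons between mice.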
